A study of Danio rerio with 12 samples.

Results

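Alternate haplotype scaffolds are short pieces of a genome assembly that hold a second version of a stretch already present on a chromosome. Regions of open chromatin on such scaffolds of the zebrafish assembly GRCz11 were taken from 2 deposited comparisons, as all regions whose sequence name ends in _alt. The TDCIPP comparison held 4403 of them among 35040 regions (12.6%), on 850 scaffolds. The DAC comparison held 4397 among 45019 regions (9.77%), on 873 scaffolds. In all, 901 scaffolds occurred in either comparison and 822 in both, and every one of the 25 chromosomes was the parent of some of them.

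ATAC-seq, which uses a transposase to cut open DNA and tag it for sequencing, was run on whole embryos at 6 hours post fertilization, around the start of gastrulation. All embryos were wild type, from AB/Tuebingen parents, and were kept at around 50 eggs per well, per the labels. The 4 groups were 3.12 µM TDCIPP, DMSO run beside TDCIPP, 100 µM decitabine (DAC) and DMSO run beside DAC, each with 3 libraries, and DMSO was given at 0.1%. TDCIPP is an organophosphate flame retardant, and decitabine is a deoxycytidine analog that traps DNA methyltransferases. The DAC table's header has 5AzaC as its treated group where the labels have decitabine, and DAC is used here. The labels do not say whether the libraries of a group are separate clutches, and the p-values may rest on technical spread alone.

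A reference genome gives 1 sequence per chromosome, while the embryos of a mixed stock carry several versions of many stretches. A scaffold can take up reads from the version it holds, and the chromosome those from its own. Where both versions are alike, a read matches both, and its place depends on the rule of the aligner. The treatment of reads with several matches is not given in the sources used, so a region on a scaffold and its copy on the chromosome may share reads and are not independent.

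The deposited tables hold group values only. For each region they give a level, the log2 of its mean normalized read count over all libraries of a comparison, the same log2 level for the treated and for the DMSO group, and a log2 fold, treated minus DMSO. Called below means an adjusted p under 0.05 in the authors' deposited table. No value of a single library was at hand, so no SD could be given, and replicate error is contained in the authors' p-values alone. In whole embryos, a change in the share of cells with an open region and a change within cells cannot be told apart.

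Scaffold regions were somewhat weaker and narrower than those of chr1 to chr25. In the TDCIPP table their median level was 6.17, against 6.42 on chr1 to chr25, which is 72.0 against 85.6 normalized reads. In the DAC table, whose median level is lower, the medians were 4.14 on scaffolds and 4.18 on chr1 to chr25, or 17.6 against 18.1 reads. Per kilobase of region the TDCIPP table had 63.6 reads on scaffolds and 71.7 on chr1 to chr25, and the DAC table had 15.2 and 15.3. Median widths were 1117 bp on scaffolds against 1185 bp on chr1 to chr25 in the TDCIPP table, and 1072 bp against 1125 bp in the DAC table. The widest scaffold region spanned 5978 bp in the TDCIPP table and 15290 bp in the DAC table, against 64599 bp and 59106 bp on chr1 to chr25. Scaffolds took up 7.08% of the normalized reads of the TDCIPP table and 6.58% of those of the DAC table, a smaller share than their share of regions.

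The scaffolds were small samples each, spread unevenly over their parents. A scaffold held a median of 4 regions in both tables and at most 25 (TDCIPP) or 30 (DAC), while 96 and 109 scaffolds held a single region. In the TDCIPP table most scaffold regions belonged to chr5 (447), chr6 (317) and chr1 (254), and in the DAC table to chr5 (370), chr1 (318) and chr6 (302). Scaffolds made up between 2.78% (chr19) and 22.5% (chr18) of a chromosome's regions, its own plus those of its scaffolds, in the TDCIPP table. In the DAC table this share ran from 3.21% (chr4) to 16.7% (chr1).

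TDCIPP called about as large a share of scaffold regions as of other regions, and most called ones fell. In the authors' deposited table, a total of 53 scaffold regions were called, which is 1.20% against 1.28% of all regions of the table, a share near the background that says nothing particular about scaffolds. On chr1 to chr25 the count was 383, or 1.28%. Of the 53, 11 rose and 42 fell (20.8% higher), and on chr1 to chr25 111 rose and 272 fell (29.0% higher). The split moved with the threshold, to 4.0% higher at an adjusted p under 0.01 and 38.5% at absolute folds of at least 0.5. Over all regions 0.362% of regions were called higher and 0.916% lower. An adjusted p below 1 occurs in the TDCIPP table only at levels of 5.71 and above, and 32.2% of scaffold regions lay below that level, against 26.1% on chr1 to chr25. Among the 2984 scaffold regions at or above it, 1.78% were called, against 1.73% of the 22075 on chr1 to chr25. At an unadjusted p under 0.05 the counts were 407 scaffold regions (9.24%) and 2975 on chr1 to chr25 (9.96%), against 9.93% of the table. Of these scaffold regions 177 were higher (4.02%, against 4.77% of the table) and 230 lower (5.22%, against 5.16%).

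The rises after TDCIPP lay at lower levels than the falls, with medians of 6.41 and 9.335, and each was the only called region of its scaffold. The largest, at 212679 to 213746 of chr1_KZ114846v1_alt, had 115 normalized reads per library in TDCIPP embryos and 54.9 in DMSO embryos. In the authors' deposited table its log2 fold is 1.07 at adjusted p = 3.52e-05. On chr9_KZ114908v1_alt, the region at 276725 to 277298 had 99.0 reads in TDCIPP and 58.1 in DMSO embryos, a fold of 0.77 with an adjusted p = 0.011 per the authors' deposited table. The other large rises, with folds of 0.75 to 0.81 and adjusted p-values of 0.015 to 0.0437 in the authors' deposited table, lay on chr5_KZ115138v1_alt, chr18_KZ114964v1_alt, chr21_KZ115622v1_alt, chr21_KZ115621v1_alt, chr22_KZ115639v1_alt and chr23_KZ115667v1_alt. All 11 rises had a median fold of 0.77 and a median level of 6.41, against 0.65 and 7.10 for the rises on chr1 to chr25. Some of the largest scaffold folds were never called, because they lay below the level at which the table gives adjusted p-values under 1. On chr18_KZ114964v1_alt, at 316902 to 317669, 70.0 reads in TDCIPP embryos stood against 28.2 in DMSO embryos, a fold of 1.31 with an unadjusted p of 1.28e-06 and an adjusted p = 1 per the authors' deposited table. It lies on the same scaffold as the called rise at 306393 to 307745, which had 99.7 reads in TDCIPP and 57.3 in DMSO embryos and a fold of 0.80.

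The falls after TDCIPP ran from regions near the median level with large folds to regions of high level with moderate folds. On chr23_KZ115677v1_alt, the region at 295490 to 297701 had 53.8 normalized reads in TDCIPP embryos and 113 in DMSO embryos, and a second one at 31878 to 33500 had 60.5 in TDCIPP and 99.7 in DMSO embryos. Their log2 folds in the authors' deposited table were -1.07 (adjusted p of 0.00102) and -0.72 (0.0428). On chr17_KZ115521v1_alt, at 165917 to 167498, the fold was -0.88 (adjusted p of 0.0124), and on chr9_KZ115284v1_alt, at 54477 to 57327, it was -0.77 (0.00155), both from the authors' deposited table. Scaffolds of chr23 held 4 of the 8 largest falls, and 8 falls and 2 rises in all. Among them, chr23_KZ115681v1_alt fell at 189823 to 191828 (77.2 reads in TDCIPP, 133 in DMSO embryos) and chr23_KZ115684v1_alt at 117853 to 119544 (86.2 in TDCIPP, 147 in DMSO embryos). On chr10_KZ115319v1_alt, at 340914 to 343529, 133 reads in TDCIPP embryos stood against 223 in DMSO embryos. On chr20_KZ115611v1_alt, at 472131 to 472995, the values were 217 reads in TDCIPP and 357 in DMSO embryos. Over all 42 falls the median fold was -0.46, the median level 9.335 and the median width 2064.5 bp. On chr1 to chr25 the falls had a median fold of -0.47, a level of 8.66 and a width of 2039 bp. The 42 include 9 falls on chr17_KZ115525v1_alt and 7 on chr17_KZ114955v1_alt, nearly all of them above a level of 9.335. The median level of the scaffold falls thus rests partly on these scaffolds, and it was not computed without them.

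Called regions were spread over 36 scaffolds of 16 of the 25 parents, 11 scaffolds with rises and 25 with falls, and 0 with both. A single call was the rule, on 31 of the 36, and 3 scaffolds had 2 calls. The exceptions were 2 scaffolds of chr17, which held 16 of the 42 falls between them, and together with chr17_KZ115521v1_alt they brought the scaffolds of chr17 to 17 falls. Without those 2 scaffolds 37 calls remained, 29.7% of them higher. In the highest of 20 level classes, from a level of 9.07 up, 24 scaffold regions (22.2%) were called, against 128 (8.22%) on chr1 to chr25. Of the 16 falls on those 2 scaffolds, all but the one at 363749 of chr17_KZ115525v1_alt (level 8.76) lie in this class. They make up most of its 24 scaffold calls, so the 22.2% rests mainly on those 2 scaffolds. It is no measure of strong regions on scaffolds at large, and the share without them was not computed.

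On chr17_KZ115525v1_alt, 9 falls lay within 54.3 kb, from 357880 to 412166. Levels at these falls ran from 8.54 to 10.3 in TDCIPP embryos and from 8.95 to 10.72 in DMSO embryos, so they are among the strong regions of the table. Their log2 folds lay between -0.56 and -0.38, with adjusted p-values of at most 0.0182, in the authors' deposited table. The smallest p of any scaffold region belonged to the one at 379746 to 380472, with 879 reads in TDCIPP embryos and 1296 in DMSO embryos (fold -0.56, adjusted p = 1.31e-05 per the authors' deposited table). All 14 regions inside the stretch had folds below 0, with a median of -0.395, called or not. The 11 regions of the scaffold outside it had a median of -0.01 and ran from -0.40 to 0.82, and their median level was 6.53. The stretch was bounded by its first and last called falls, and 9 of its 14 regions are called falls. Its median and the contrast with the regions outside follow largely from that choice. The stretch held 5 regions at a regular distance, whose starts between 386487 and 403814 were 4180 to 4184 bp apart. These were 587 to 600 bp wide with levels of 8.58 to 8.68 and folds of -0.35 to -0.19, and none passed (smallest adjusted p = 0.192 per the authors' deposited table). No other run of at least 4 regions with starts evenly spaced within 20 bp was found in either whole table. Looser layouts and those with gaps were not sought. On chr1_KZ115029v1_alt, DAC regions 376 to 430 bp wide recur at similar steps, with starts at 224611, 229276 and 233932, then at 243294 and 247952.

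On chr17_KZ114955v1_alt, 7 falls followed each other within 35.5 kb, from 232743 to 268220, and they include 2 of the 3 scaffold regions of the highest level in the TDCIPP table. Their levels ran from 10.42 to 12.55 in TDCIPP embryos and from 10.80 to 13.01 in DMSO embryos. The one at 242566 to 245255 had 3984 reads in TDCIPP embryos and 5713 in DMSO embryos, which is a fold of -0.52 (adjusted p = 3.04e-05 per the authors' deposited table). All 7 had folds between -0.52 and -0.38 with adjusted p-values of at most 0.00752 in the authors' deposited table. The 6 regions outside the group had a median fold of 0.01. The group was bounded by its called falls and holds no other region, so this contrast follows from that choice.

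Judged by the regions around it, the group on chr17_KZ114955v1_alt lies where chr17 itself carries a group of falls. In order along the scaffold, the 5 regions before the group have partners on chr17 between 23181792 and 23312360, and the 1 region after it has a partner at 23409775 to 23410546. The partners differed in level by at most 0.08, and the last was 772 bp wide with a level of 4.89 on the scaffold and on the chromosome alike. The distance between scaffold and chromosome positions changed by at most 84 bp over the first 4 partners, by 3992 bp before the fifth and by 23172 bp across the group. Inside the group the layout of regions differed: the scaffold held 7 regions in 35.5 kb and chr17 held 16 regions in 57.2 kb, from 23329700 to 23386888. On the scaffold all 7 were called, with a median fold of -0.43, and on chr17 9 of 16 were called and all 16 had folds below 0, with a median of -0.34, all per the authors' deposited table. Summed over the group, the scaffold had 24116 normalized reads per library in TDCIPP embryos and 32725 in DMSO embryos, and chr17 had 29801 in TDCIPP and 38214 in DMSO embryos. These partners were matched after the values had been seen, and the third pair differed by 206 bp in width. The search for counterparts given further on matched no run of chr17_KZ114955v1_alt or of chr17_KZ115525v1_alt on chr17. The placement therefore rests on partners that do not meet the rule of that search.

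**Figure D1:**
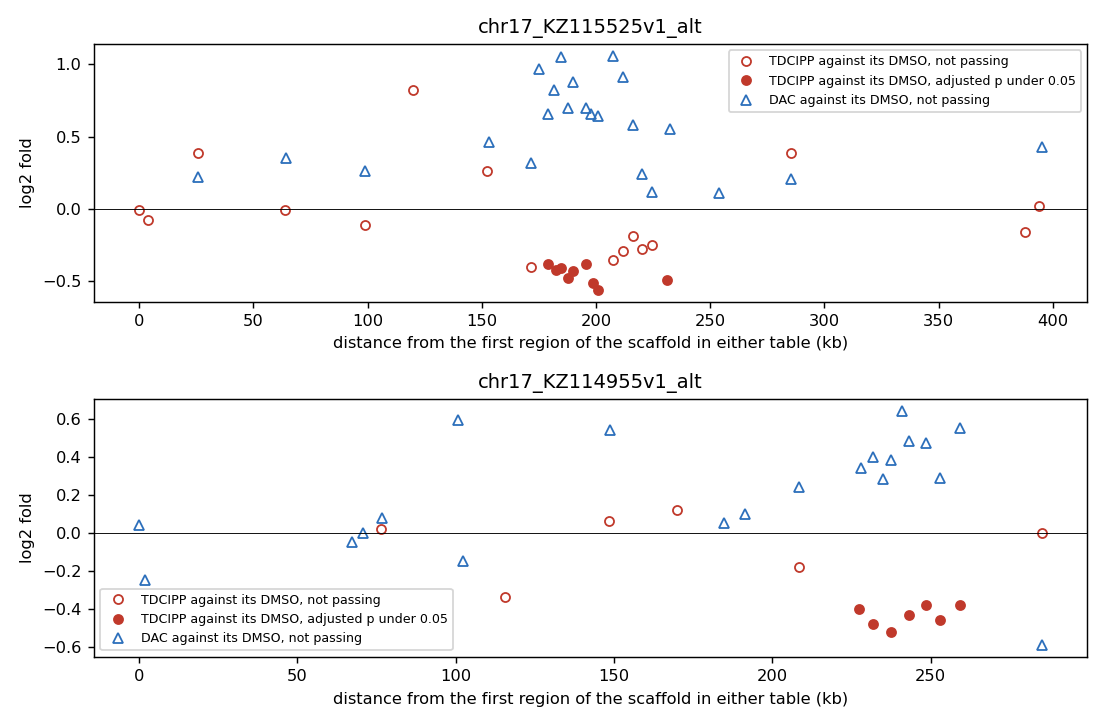
Log2 fold of each region along the 2 scaffolds of chr17 with the most falls, against distance in kb from the first region of the scaffold in either table; circles are TDCIPP over its DMSO (filled where the adjusted p was under 0.05) and triangles DAC over its DMSO. The 9 and 7 filled circles sit together between -0.56 and -0.38, and the triangles over the same stretches all lie above 0.

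In the same stretches the DAC table had folds above 0 throughout. On chr17_KZ115525v1_alt all 14 DAC regions between the first and last TDCIPP fall had positive log2 folds in the authors' deposited table, from 0.12 to 1.06 with a median of 0.68. Outside, all 9 were positive too, with a median of 0.32. On chr17_KZ114955v1_alt all 9 DAC regions inside the group were positive, from 0.28 to 0.64 with a median of 0.40, and the 12 outside had a median of 0.045. None passed the adjusted p, and the smallest unadjusted p-values were 0.0433 and 0.302 in the authors' deposited table. At the group on chr17 itself all 14 DAC regions were above 0, with a median of 0.335. DAC folds are higher at higher levels in this table. In level classes 19 and 20 of 20, the strongest, 91.2% and 86.3% of chr1 to chr25 regions were above 0, and the group on chr17_KZ114955v1_alt lies in these classes. Set against chr1 to chr25 regions of like level, the DAC folds of all regions of the scaffold had a median difference of 0.30 on chr17_KZ115525v1_alt and of -0.02 on chr17_KZ114955v1_alt. Inside the stretches alone, the differences ran from 0.00 to 0.94 on chr17_KZ115525v1_alt and from -0.07 to 0.30 on chr17_KZ114955v1_alt.

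After DAC no scaffold region passed, but folds on scaffolds were shifted upward. In the authors' deposited table, no scaffold region had an adjusted p under 0.05, against 0.0% of the whole table, and 74 (1.68%) had an unadjusted p under 0.05. Of these 70 were higher and 4 lower, so 1.59% of scaffold regions were higher at that threshold, against 0.755% of the whole table and 0.652% of chr1 to chr25. For regions of like level on chr1 to chr25 the share came to 0.688%, and the scaffold share was the higher one in 17 of 20 level classes. With 70 such regions over 20 classes, each class share rests on few regions. On chr1 to chr25, 364 regions (0.927%) had an unadjusted p under 0.05, 256 of them higher and 108 lower, and of all regions of the table this held for 1.01%, with 0.251% lower. The 74 regions lay on 66 scaffolds of the 873, and 23 of 25 parents had a positive one. Where nothing changed, evenly spread p-values would put a share of 0.05 of regions under this threshold. Both 1.68% on scaffolds and 1.01% of the table lie below that, so these counts do not show changed regions.

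Scaffold regions with the smallest DAC p-values had levels of 3.90 to 4.95 where the fold was positive, around the scaffold median of 4.14, and none of them passed. On chr6_KZ114879v1_alt, at 9446 to 9875, DAC embryos had 32.2 normalized reads and DMSO embryos 10.7, a log2 fold of 1.58 (unadjusted p = 0.000943 per the authors' deposited table). On chr1_KZ115007v1_alt, at 263710 to 264550, the values were 44.9 in DAC and 16.8 in DMSO embryos (fold 1.42, unadjusted p of 0.00211). The next were on chr23_KZ115667v1_alt (fold 1.23), chr9_KZ114901v1_alt (1.48) and chr6_KZ114876v1_alt (1.55), with unadjusted p-values of 0.00434 to 0.00546 in the authors' deposited table. Only 4 negative ones had an unadjusted p under 0.05, and the first of these had a level of 1.84. On chr1_KZ114838v1_alt, at 280575 to 281429, 1.62 reads in DAC embryos stood against 5.54 in DMSO embryos (fold -1.77, unadjusted p = 0.0318 per the authors' deposited table). The others lay on chr1_KZ115747v1_alt (-1.04), chr12_KZ115392v1_alt (-1.05), chr24_KZ114993v1_alt (-0.93) and, past an unadjusted p of 0.05, on chr1_KZ115003v1_alt (-1.05, 0.0524).

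The strongest scaffold regions had folds of both signs. The region of the highest level in both tables was that on chr20_KZ115604v1_alt, at 135526 to 137800 in the TDCIPP table, with 10086 reads in TDCIPP embryos and 7750 in DMSO embryos. Its TDCIPP fold was 0.38 with an adjusted p of 0.124, and its DAC fold was -0.23 (10960 reads in DAC and 12855 in DMSO embryos, unadjusted p of 0.665), in the authors' deposited tables. The next in the DAC table were on chr11_KZ115349v1_alt, with 2539 reads in DAC and 3421 in DMSO embryos (fold -0.42), and on chr4_KZ115098v1_alt, with 2610 in DAC and 1675 in DMSO embryos (fold 0.64).

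Taken over all regions, scaffolds and chromosomes were close after TDCIPP and apart after DAC. The median TDCIPP fold was 0.00 on scaffolds and 0.01 on chr1 to chr25, with 49.6% and 50.3% of regions above 0. The median DAC fold was 0.20 on scaffolds and 0.10 on chr1 to chr25, with 67.3% and 58.9% above 0. To compare at like level, the median fold of chr1 to chr25 regions in the same of 20 level classes was subtracted from each scaffold region's fold. This level-matched difference had a median of -0.02 after TDCIPP and 0.12 after DAC on the log2 scale. After DAC, 61.8% of scaffold regions lay above the median of their level class, against 49.4% of regions on chr1 to chr25.

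The DAC difference was present at every level. The scaffold median exceeded that of chr1 to chr25 in 20 of 20 level classes, by 0.07 to 0.205. In the weakest class both medians were negative, -0.13 on scaffolds and -0.22 on chr1 to chr25, and in the strongest they were 0.44 and 0.36. After TDCIPP the scaffold median was lower in 16 classes, higher in 2 and equal in 2, with differences of -0.08 to 0.02, the largest in the strongest class (-0.16 on scaffolds, -0.08 on chr1 to chr25). Nearly all called falls of the 2 scaffolds of chr17 described above lie in that class, and its median without them was not computed. Regions of a table are not replicates and neighbours on 1 scaffold move together, so these medians carry no test.

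**Figure D2:**
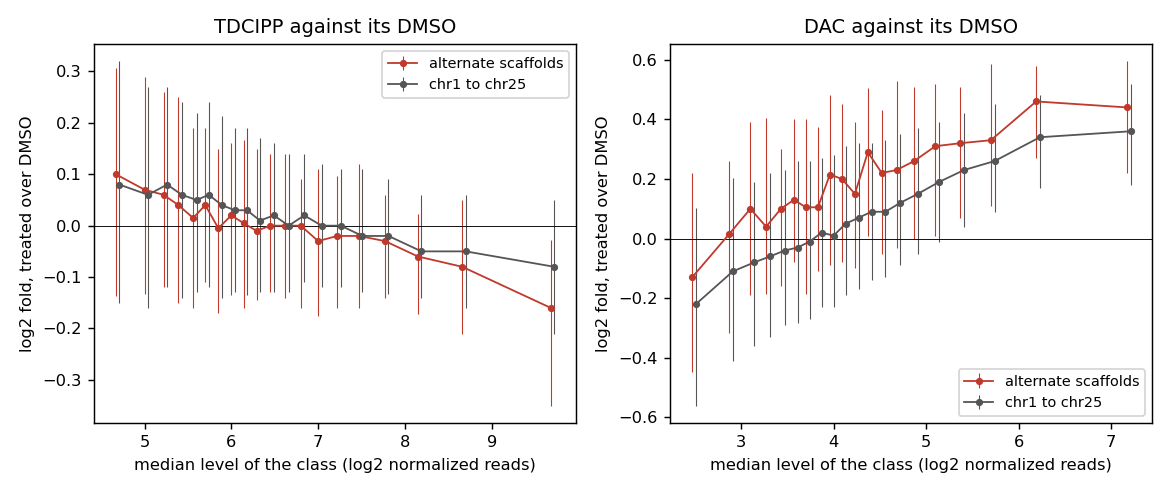
Median log2 fold (points) with the interquartile range (bars) of regions on alternate scaffolds and on chr1 to chr25 in 20 level classes, against the median level of the class in log2 normalized reads. After DAC the scaffold points lie above those of chr1 to chr25 in all 20 classes, by 0.07 to 0.205, and after TDCIPP they lie lower in 16.

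Set against its own parent, each chromosome's group of scaffolds had a higher DAC median in 22 of 25 cases, a lower one in 2 and an equal one in 1. The widest gap was at chr4, known for a long arm rich in repeats, with a median DAC fold of 0.38 on its scaffolds and 0.11 on the chromosome. Next came chr15, with 0.32 on scaffolds and 0.10 on the chromosome, and chr17, with 0.25 and 0.05. The exceptions were chr22, with 0.06 on scaffolds and 0.16 on the chromosome, and chr8, with 0.08 and 0.09, while chr21 had 0.12 on both. Scaffolds of chr12 were near their parent as well, with 0.11 against 0.08. At like level the scaffolds' median was above that of the chromosome for 25 of 25 parents, by 0.02 to 0.27. The scaffolds with most DAC regions, those of chr5, chr1 and chr6, had medians of 0.26, 0.16 and 0.16, against 0.12, 0.07 and 0.14 on the chromosomes.

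After TDCIPP the differences from the parent were small. Scaffold medians were above the parent's in 9 cases, below in 12 and equal in 4, and the differences stayed between -0.05 and 0.06. At like level they were above the chromosome's in 7 cases and below in 17, by -0.08 to 0.02. The lowest were at chr17 (-0.03 on scaffolds, 0.02 on the chromosome), chr14 (-0.04 and 0.00) and chr23 (-0.035 and 0.00). The highest were at chr25 (0.08 on scaffolds, 0.02 on the chromosome), with chr8, chr20, chr22 and chr24 following at a difference of 0.04.

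**Figure D3:**
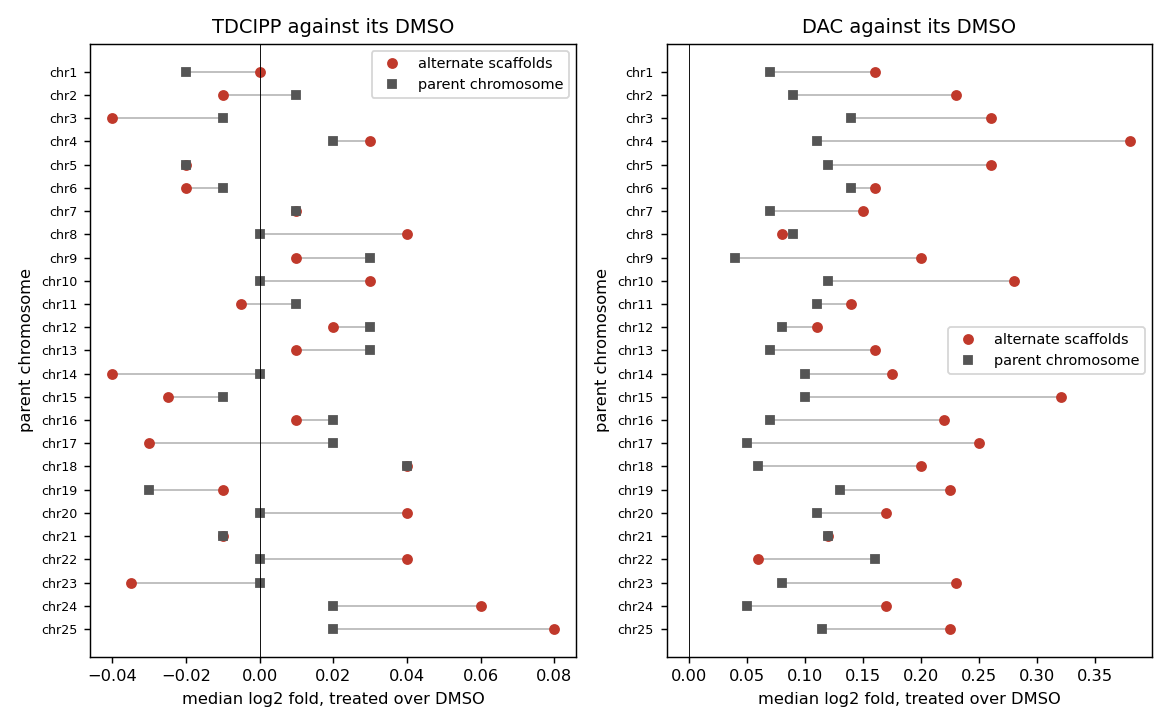
Median log2 fold, treated over DMSO, of the alternate scaffolds of each parent (circles) and of the parent chromosome itself (squares), for TDCIPP on the left and DAC on the right; a square covers the circle where both medians are equal. After DAC the circle lies to the right of the square for 22 of 25 parents, with the widest gap at chr4 (0.38 against 0.11), while after TDCIPP the gaps stay within -0.05 to 0.06.

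Medians of single scaffolds ranged more widely than those of parents. They rest on fewer regions each, against 35 to 447 per parent in the TDCIPP table, and medians over fewer regions vary more by sampling. Whether the scaffolds differ beyond that was not tested. Among the 98 scaffolds with at least 10 regions in the TDCIPP table, 46 had a median fold above 0 and 49 below, from -0.38 to 0.225. The lowest were chr17_KZ114955v1_alt (-0.38), chr23_KZ115696v1_alt (-0.345) and chr17_KZ115525v1_alt (-0.28). The highest were chr18_KZ115573v1_alt (0.225), chr6_KZ115176v1_alt (0.22) and, tied at 0.21, chr8_KZ115273v1_alt and chr6_KZ115194v1_alt. On chr6_KZ115176v1_alt 11 of 11 regions were above 0, from 0.11 to 0.66, and none was called. On chr23_KZ115696v1_alt 8 of 10 were below 0, and the one at 275873 to 278236 fell (170 reads in TDCIPP, 251 in DMSO embryos, fold -0.56, adjusted p = 0.00822 per the authors' deposited table).

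Among the 91 scaffolds with at least 10 regions in the DAC table, 70 had a median above 0 and 17 below, from -0.365 to 0.78. The highest, chr14_KZ114937v1_alt, was also the scaffold with most DAC regions at an unadjusted p under 0.05, namely 3. At these 3, DAC embryos had 113, 79.3 and 57.3 reads and DMSO embryos 50.2, 32.0 and 25.1, with log2 folds of 1.17, 1.31 and 1.18 in the authors' deposited table. The next, chr4_KZ115085v1_alt, had 19 of 20 DAC regions above 0 with a median of 0.675, and 14 of 18 TDCIPP regions above 0 with a median of 0.15. On chr1_KZ115029v1_alt 12 of 12 DAC regions were above 0, with a median of 0.62. The other scaffolds with most TDCIPP regions had medians of 0.11 on chr12_KZ115384v1_alt, 0.02 on chr14_KZ114944v1_alt and 0.155 on chr18_KZ115556v1_alt, and none of their regions was called. In the DAC table chr12_KZ114926v1_alt had a median of 0.405 over 22 regions and chr8_KZ115264v1_alt one of 0.00 over 23.

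The scaffold with most DAC regions went the other way. On chr8_KZ115273v1_alt 26 of 30 DAC regions were below 0, with a median of -0.365 and a range of -0.82 to 0.33. In the TDCIPP table, 17 of its 18 regions were above 0, with a median of 0.21 and a range of -0.10 to 0.33. No region of it was called in either table. The other low medians after DAC were on chr1_KZ115003v1_alt (-0.305, 10 of 14 below 0) and chr22_KZ115639v1_alt (-0.21, 10 of 13 below 0).

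**Figure D4:**
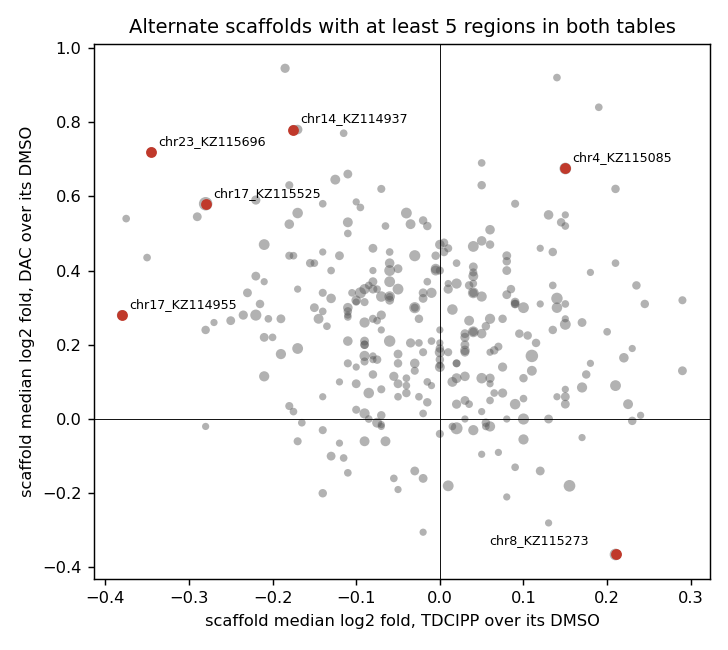
Median log2 fold of each of the 304 scaffolds with at least 5 regions in both tables, DAC over its DMSO against TDCIPP over its DMSO; the size of a point grows with its number of TDCIPP regions and red points are named. Most points lie above 0 on the DAC axis on both sides of 0 on the TDCIPP axis, and chr8_KZ115273 (0.21 for TDCIPP, -0.365 for DAC) stands lowest.

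Both treatments could be set side by side at 2600 scaffold regions that overlapped by at least 1 base, which is 59.1% of the scaffold regions of either table. On chr1 to chr25, 21754 regions did, or 72.8% of the TDCIPP and 55.4% of the DAC regions. The treatments have control libraries of their own. Pearson's r between the TDCIPP and the DAC fold over shared scaffold regions was -0.0976, against -0.155 on chr1 to chr25, a weak relation. With level-matched differences in place of folds, r was -0.0575 on scaffolds and -0.107 on chr1 to chr25. Over the 304 scaffolds with at least 5 regions in both tables r between the medians was -0.167, and -0.131 with level-matched differences. By sign, 110 of these scaffolds had both medians above 0, 142 had TDCIPP below and DAC above, 18 had TDCIPP above and DAC below, and 19 had both below.

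At 39 of the 42 TDCIPP falls a DAC region overlapped, and 37 of the 39 were above 0 after DAC, with a median fold of 0.59, against 0.34 over all 2600 shared scaffold regions. Most shared scaffold regions were above 0 after DAC in any case. Of the 2600, 934 were above 0 after both treatments, and 1195 were above 0 after DAC and below 0 after TDCIPP. The 3 rises with a DAC region had a median DAC fold of 0.02. In the reverse direction, the 53 shared regions higher after DAC at an unadjusted p under 0.05 had a median TDCIPP fold of -0.02, equal to that of all shared scaffold regions, and 24 of them were above 0. On chr1 to chr25, DAC folds were above 0 at 230 of 241 shared TDCIPP falls, with a median of 0.39, against 0.22 over all shared regions there. The falls are strong regions, where DAC folds are higher in general. At like level the DAC medians of the falls were 0.30 above chr1 to chr25 on scaffolds and 0.09 on chr1 to chr25. All scaffold regions of the DAC table, falls or not, were 0.12 above at like level. Of the 39, 16 lay on the 2 scaffolds of chr17 described above, and the remaining 23 had a median DAC fold of 0.59 before matching for level, 21 of them above 0.

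Neighbouring scaffold regions had like folds. Between regions less than 20 kb apart, r between the folds of neighbours was 0.403 over 1616 pairs on scaffolds after DAC, against 0.234 over 21997 pairs on chr1 to chr25. After TDCIPP r was 0.284 over 1693 pairs on scaffolds and 0.269 over 15040 pairs on chr1 to chr25. With level-matched differences in place of folds, r was 0.365 on scaffolds and 0.223 on chr1 to chr25 after DAC, and 0.285 and 0.263 after TDCIPP. The median gap of a pair was 6.46 kb on scaffolds and 7.5 kb on chr1 to chr25 in the DAC table, and 8.33 kb and 7.91 kb in the TDCIPP table. Pairs were not matched for gap. These are correlations across regions of the same libraries and carry no p.

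To ask how a scaffold's version compares with the chromosome's version of the same stretch, runs of at least 4 regions were sought on the parent chromosome in the same order, with widths within 100 bp and spacing within 300 bp. Level and fold were not used in this match, and no sequence was aligned. In the TDCIPP table, 62 of 522 scaffolds with enough regions had such a run, giving 301 counterpart pairs, 6.84% of scaffold regions. In the DAC table, 34 of 514 scaffolds gave 157 pairs. Some matched scaffolds cover the same stretch of a chromosome. The TDCIPP runs of chr5_KZ114865v1_alt and chr5_KZ115123v1_alt both start at 32767381 of chr5. In both tables the stretch of chr9_KZ115282v1_alt lies inside that of chr9_KZ115757v1_alt. A chromosome region can thus occur in more than 1 pair, and the pairs are not all distinct. The same search on the chromosome of the next number gave 0 scaffolds in both tables. Runs of 3 regions, which were not used, were found for 83 scaffolds on the parent and 29 on the next chromosome in the TDCIPP table. Of 20 scaffolds matched in both tables, 19 had offsets between scaffold and chromosome positions that differed by at most 60.5 bp between the tables, while for chr3_KZ114852v1_alt, whose runs lie at different stretches of the scaffold, the offsets differed by 19.8 kb.

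Counterparts had nearly the same level. Across pairs r between the levels was 0.981 in the TDCIPP and 0.975 in the DAC table, and the median difference was 0.0 in both. The levels were within 0.1 of each other for 219 of 301 TDCIPP pairs (72.8%) and for 95 of 157 DAC pairs (60.5%). Whether the pairs share reads was not tested.

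Folds of counterparts were alike in direction. In the TDCIPP table r between the folds was 0.653, with 218 of 301 pairs (72.4%) on the same side of 0, and in the DAC table it was 0.726, with 134 of 157 (85.4%). After DAC 80.3% of the scaffold members and 79.0% of their counterparts were above 0, so most pairs would share a sign without any relation, while after TDCIPP these shares were 45.8% and 46.2%. Where both folds of a pair were at least 0.3 from 0, 31 of 32 TDCIPP pairs and 80 of 82 DAC pairs had the same direction. These pairs were selected by the folds that are compared, and the share to expect among them without any relation was not computed. The longest run was that of chr6_KZ115194v1_alt, whose 9 TDCIPP regions match chr6 from 36551676 to 36717444. Its levels run 9.39 against 9.41, 7.21 against 7.32 and 7.64 against 7.62 over the first 3 pairs, scaffold before chromosome. On chr8_KZ115269v1_alt, 8 regions match chr8 from 30979374 to 31214113, and the pair of the lowest fold had -0.63 on the scaffold and -0.60 on the chromosome, neither called (adjusted p of 0.0909 and 0.129 in the authors' deposited table). On chr11_KZ115351v1_alt the 7 DAC pairs had medians of 0.58 on the scaffold and 0.61 on chr11 between 18106701 and 18283665.

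**Figure D5:**
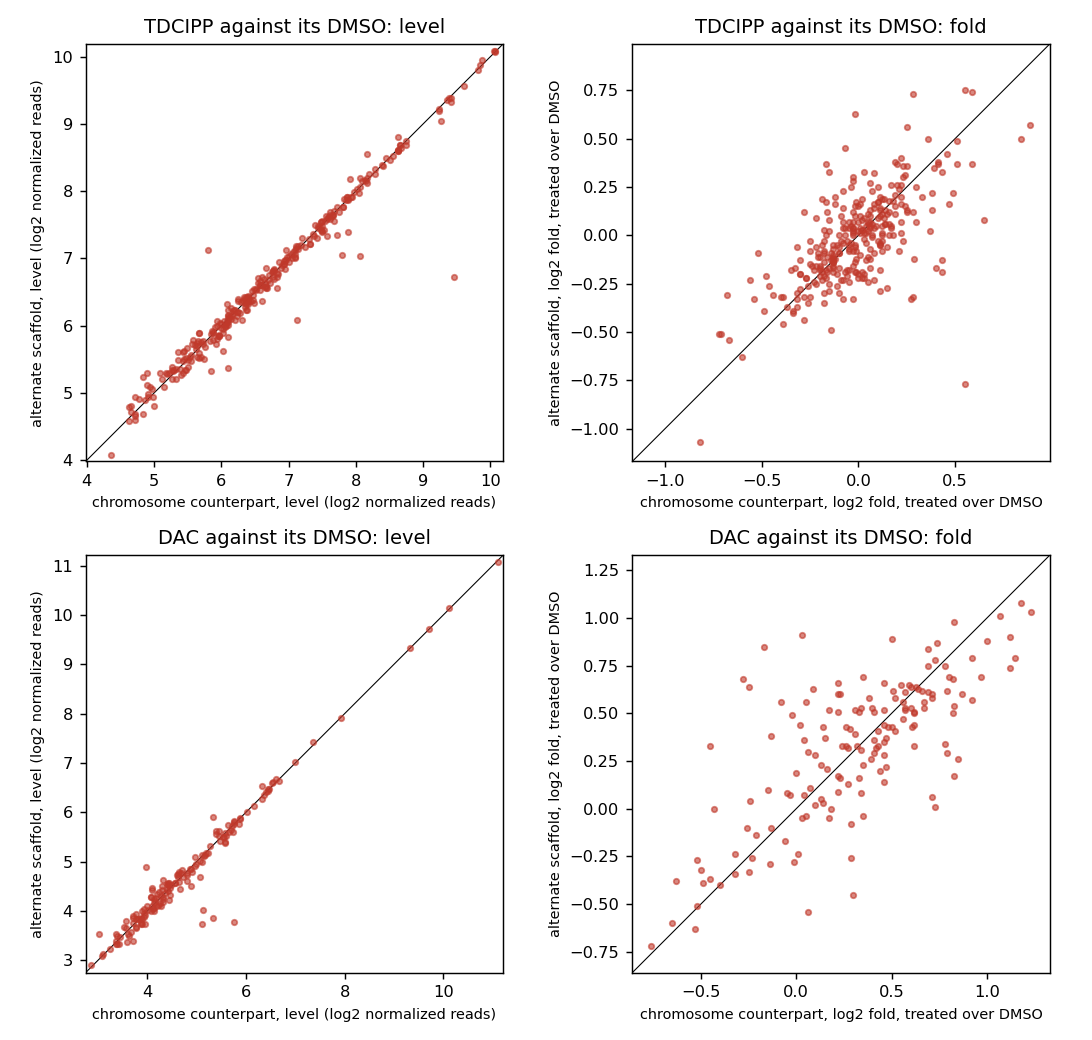
Level (left, log2 normalized reads) and log2 fold (right) of regions on alternate scaffolds against their counterparts on the parent chromosome, for 301 pairs of the TDCIPP table above and 157 pairs of the DAC table below; the line marks equality. Levels hug the line (r of 0.981 and 0.975), folds scatter round it (0.653 and 0.726), and 1 TDCIPP pair stands apart at -0.77 on the scaffold and 0.55 on the chromosome.

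Of the TDCIPP calls, 4 scaffold regions and 6 chromosome regions of these pairs were called, and in 3 pairs both were. At chr23_KZ115677v1_alt the fall at 295490 to 297701 (fold -1.07) has its counterpart at 17206662 to 17208955 of chr23, which fell too (-0.82, adjusted p = 0.00556 per the authors' deposited table). At chr1_KZ115011v1_alt both 208995 to 211217 and its counterpart at 19671802 to 19674021 of chr1 had a fold of -0.37, with adjusted p-values of 0.0192 and 0.0308 in the authors' deposited table. At chr5_KZ115112v1_alt the fall at 216823 to 219322 (-0.39) stood beside one at 24200270 to 24202793 of chr5 (-0.49). In the 3 pairs called on the chromosome alone, the scaffold folds had the same sign, namely -0.31 against -0.68 on chr3, -0.32 against -0.39 on chr5 and -0.51 against -0.72 on chr6.

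The fourth called scaffold region had a counterpart of the opposite sign. On chr23_KZ115684v1_alt, 117853 to 119544 had a fold of -0.77, and its counterpart at 22803297 to 22804937 of chr23 had 0.55, with an unadjusted p of 0.003 and an adjusted p = 0.106 per the authors' deposited table. Widths were 1692 bp and 1641 bp, and levels 6.86 and 6.67. Along the 5 pairs of that run the scaffold folds were -0.17, 0.22, -0.32, -0.77 and 0.09 and the chromosome folds 0.40, 0.38, 0.28, 0.55 and 0.03, so the scaffold was the lower one in 4 of 5. The difference between versions was not tested, since the tables hold no value of single libraries.

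In the matched pairs, which cover 3.57% of scaffold regions of the DAC table, the chromosome's versions were shifted after DAC like the scaffolds' versions. Members of a pair may share reads, so they are not separate observations. The scaffold regions with a counterpart had a median DAC fold of 0.38 and the counterparts one of 0.34, and the median difference within pairs was -0.03. At like level the scaffold members were 0.25 above chr1 to chr25 and their counterparts, which lie on chr1 to chr25, were 0.20 above. Scaffold regions without a counterpart were 0.12 above. With widths within 200 bp, spacing within 1 kb and at least 6 regions in a run, the values were 0.10 for the scaffold members and 0.11 for their counterparts. After TDCIPP the medians were -0.03 on scaffolds and -0.02 on the chromosomes, and both were 0.02 below chr1 to chr25 at like level.

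Matched runs with high and with low DAC folds mostly had medians of the same sign on scaffold and chromosome. Of 31 runs whose medians on scaffold and chromosome were both at least 0.1 from 0, 30 had the same sign on both. After TDCIPP 14 of 16 such runs had the same sign. Most DAC folds of counterparts were above 0, so most DAC runs would share a sign without any relation. These runs were also selected by the medians that are compared. The exception after DAC was chr15_KZ114948v1_alt, with a median of 0.465 on the scaffold and -0.135 on chr15 over 4 pairs, and levels of 3.76 and 4.54. On chr10_KZ115325v1_alt the medians were 0.56 on the scaffold and 0.23 on chr10. The lowest run was that of chr1_KZ115004v1_alt, with -0.60 on the scaffold and -0.63 on chr1. On chr1_KZ115029v1_alt, 5 regions match chr1 from 30776724 to 30819115, with median DAC folds of 0.79 on the scaffold and 0.92 on the chromosome. The pair at 247952 to 248327 of the scaffold and 30800061 to 30800446 of chr1 had folds of 1.08 and 1.18, with unadjusted p-values of 0.0365 and 0.0355 in the authors' deposited table. Regions of like width recur at similar steps along this stretch, so order, width and spacing do not settle which of them pair up. The next scaffold, chr1_KZ115030v1_alt, matches chr1 from 30877084 to 30980747 with medians of 0.68 and 0.855. On chr8_KZ115273v1_alt, whose DAC folds were mostly negative, 6 regions match chr8 from 34616988 to 34663641, and their median DAC fold was -0.255 on the scaffold and -0.15 on the chromosome.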

How the data were processed

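Per the submitters' processing notes, Bowtie2, Picard, MACS2, deepTools and DiffBind were used on GRCz11, while read shifting, duplicates and reads with several matches are not given in the sources used. The authors deposited 2 DiffBind tables, 1 per treatment, each over its own consensus regions. Per the file headers, their values are log2 levels, a log2 fold and p-values (unadjusted and adjusted). The tables hold 0 columns of single libraries, so the test on counts written down for that case was not run, and the authors' adjusted p was used as the call. In 0 regions did the fold differ from treated minus DMSO level by more than 0.01. Depth is known only as group means.

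Members were regions whose sequence name ends in _alt, and they were compared with chr1 to chr25 in 20 level classes of equal size, with each parent chromosome, and with counterparts matched by order, width and spacing. Members, lists and comparisons were chosen with earlier results of these data known. Named regions were the 8 largest rises and falls, the 2 of the smallest p each way, for DAC the 5 of the smallest p each way, and the 3 of the highest level. Named scaffolds were the 5 with most regions, those with 3 or more calls (for DAC, an unadjusted p under 0.05) and the 3 highest and lowest medians among scaffolds with at least 10 regions, and other regions and scaffolds named were chosen after their values were seen. The 3 parents with most regions and the 3 with the highest and lowest differences were named. No gene was named and no sequence shown, since the gene table at hand follows another build. Analyses ran in Python 3.11.15 with pandas 2.3.3, numpy 2.4.6, scipy 1.17.1 and matplotlib 3.10.9, and the scripts were tested on simulated data.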

Additional observations from a re-analysis of the deposited data

How the results depend on the processing

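No paired analysis was possible because both tables give group values alone, and leaving out replicates and a replicate block were not run for the same reason. Of 113 alternatives, 103 left their result in direction and within its tolerance (0.05 on the log2 scale, 1.5 times for counts, the 95% Clopper-Pearson interval of 10.8 to 34.1% for the share of higher calls). This tally says little by itself. The interval treats calls as independent, although neighbouring regions move together. It serves as a tolerance only. For each treatment's median fold, 25 alternatives left out the scaffolds of a single parent, which can hardly move a median over all scaffold regions. A level of at least 5 could not change the TDCIPP calls, since none lie below 5.71. The count of TDCIPP calls was 25 at an adjusted p under 0.01, 88 at one under 0.1 and 26 with an absolute log2 fold of at least 0.5, and 37 to 56 under the others. The share of them that were higher was 4.0% at an adjusted p under 0.01 and 38.5% with that fold minimum. The count of DAC regions at an unadjusted p under 0.05 was 10 at one under 0.01 and 14 at levels of at least 5, and DAC calls numbered 0 under all alternatives. The median DAC fold was 0.35 at levels of at least 5, and otherwise 0.19 to 0.205. The level-matched difference stayed at 0.10 to 0.12 after DAC and at -0.02 to -0.01 after TDCIPP under 9 alternatives each, among them leaving out chr4, using each region's own parent and weighing scaffolds alike. Under the wider match of counterparts (chosen after seeing the data, like the other settings of that match), the DAC level-matched difference was 0.10 for scaffold members and 0.11 for counterparts, and the cause was not tested. The median scaffold region had 72.0 normalized reads in the TDCIPP and 17.6 in the DAC table, and whether depth limits the DAC calls was not tested.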
